A study of Capra hircus with 6 samples.

Results

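The circular RNAs described here are the exonic circRNAs of goat skeletal muscle that enclose 10 or more exons. They were chosen by the class and exon number that the deposited tables give each circRNA. Of 24037 circRNAs in the study, 20822 were exonic, and 953 of these (4.58%) enclosed 10 or more exons. These 953 many-exon circRNAs came from 606 host genes, which is 10.5% of the 5789 genes with any exonic circRNA. The rule uses no expression value, but it was set with earlier results of these data known.

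A circRNA forms when the splicing machinery joins the end of a downstream exon back to the start of an upstream exon, which leaves a closed ring with no cap and no poly(A) tail. Most known exonic rings enclose only a few exons, and with no free ends they resist the exonucleases that degrade linear RNA. A ring of many exons encloses more exons of its host than a shorter ring does, which need not be a large part of the host's coding sequence. A sequencing read identifies it only at the back-splice junction, where the last enclosed exon meets the first.

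The samples were longissimus dorsi, a long back muscle, from Haimen goats. The kid group had 3 libraries from animals of 1 day of age and the fetus group had 3 libraries from fetuses at 75 days of gestation, with no treatment in either group. The labels list them as separate samples but do not say that each came from another animal, so the p-values below measure the spread between these libraries. The comparison between the stages asks which circRNAs differ between a fetus whose muscle is still being built and a newborn animal.

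Back-splice reads numbered 42695 to 77111 in the kid libraries and 33222 to 56467 in the fetus libraries. Levels are given as CPM, the back-splice counts divided by each library's back-splice total, scaled with TMM factors, so 1 read was worth 14.1 to 25.7 CPM in kid and 16.4 to 27.4 CPM in fetus. The authors' quality filter kept 84.01% to 87.92% of the raw reads in the kid libraries and in fetus 3 kept 86.99%, but it kept 70.73% in fetus 1 and 69.1% in fetus 2. Of 16 muscle fibre markers, 13 had exonic circRNA reads, and their summed level was 18910 to 23280 CPM in kid and 11190 to 12050 CPM in fetus. ACTN3, MYH3 and MYH7 were at 0. The lists of endothelial, immune, erythroid, fat, nerve, smooth muscle and connective tissue markers each summed to at most 424.5 CPM in kid and at most 524.0 CPM in fetus, and none of their genes hosted a many-exon circRNA. Nerve markers were lower in kid (13.83, 106.1 and 0.0 CPM) than in fetus (249.5, 112.2 and 323.3 CPM). Connective tissue markers had 27.66, 291.9 and 43.37 CPM in kid and 524.0, 448.9 and 274.8 CPM in fetus, with overlap. In the remaining lists of these the stages overlapped. The part of these differences between libraries in the results below was not tested. In whole muscle, fewer cells of a type and less RNA per cell cannot be told apart.

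The tables listed 980 many-exon entries. In 28 cases a pair of entries shared sequence, strand and end and differed by 1 base in the start, and each pair was added together, with 532 reads in all. In none of the 100 pair and library combinations with reads did both entries of a pair hold reads. Of the 28 pairs, 24 gave the same exon number in both entries and 23 the same length. 1 pair of SNAP91 gave 9 exons in 1 entry and 10 in the other. The exon number and the length are therefore the annotation's content between the 2 ends of a ring. The reads measured the junction, and whether a ring held each exon in between was not measured.

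Many-exon circRNAs were rarely read. All 953 together held 3672 back-splice reads, 2253 in kid and 1419 in fetus, or 3.85 reads per circRNA over the 6 libraries. The mean was 16.1 reads for circRNAs of 2 to 3 exons, 13.5 for those of 4 to 6 exons, 6.23 for those of 7 to 9 exons and 11.1 for those of 1 exon. A total of 1 read was all that 520 many-exon circRNAs (54.6%) had, against 43.4% at 7 to 9 exons and 33.5% at 2 to 3 exons. In all, 730 (76.6%) appeared in 1 library only and 20 appeared in all 6 libraries. Entries whose host was listed as a gene number held almost no values of 1 read (1.35% of their nonzero values, against 40.4% for entries with a gene symbol), and 108 of the 980 many-exon entries were of this kind, so counts of 1-read circRNAs depend on which list an entry came from. The number of circRNAs fell off steeply with exon number. There were 430 circRNAs with 9 exons (2424 reads) just outside the class and 289 with 10 exons (1821 reads) just inside it, then 185 with 11, 120 with 12 and 93 with 13, while 74 enclosed 20 or more.

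**Figure D1:**
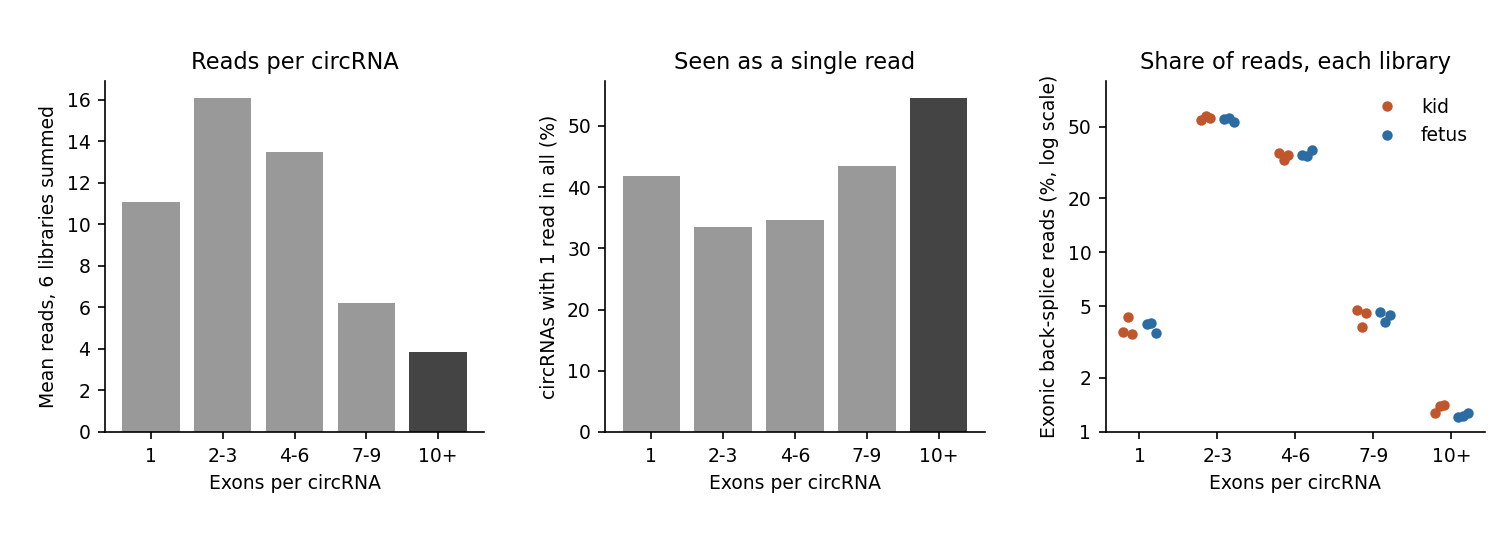
Exonic circRNAs by number of exons. The left bars give mean back-splice reads per circRNA summed over 6 libraries, the middle bars give the percent of circRNAs with 1 read in all, and the points on the right give each library's percent of exonic back-splice reads (log axis) with kid left of fetus. Circles of 10 or more exons had the fewest reads each (3.85), the highest percent with 1 read (54.6%) and the smallest share of reads in every library.

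Rings of many exons were longer in total but not per exon. Their listed length had a median of 1580 bases and ranged from 582 to 14361 bases, against a median of 443 bases for circRNAs of 2 to 9 exons. The median length per exon was 129 bases in the many-exon class and 127 bases at 2 to 9 exons. The genomic span between the ends had a median of 31675 bases and reached 788943 bases, for a ring of 12 exons of DLG2, a scaffold protein of synapses, that had 1 read. The length was a multiple of 3 for 37.5% of many-exon circRNAs and for 38.4% of those of 2 to 9 exons. Of the 872 with listed exon numbers, 226 (25.9%) began at exon 2, against 22.2% at 2 to 9 exons. This percent was 36.0% at 1 exon, 23.1% at 7 to 9 exons, 25.8% at 9 exons and 21.9% at 10 exons. Of the many-exon circRNAs 0 began at exon 1, against 24 of 16952 at 2 to 9 exons. Introns beside the ring were listed for 61 many-exon circRNAs, all with hosts given as gene numbers, with a median of 2919 bases upstream and 2192 bases downstream. The 1654 circRNAs of 2 to 9 exons listed in that way had medians of 6557.5 and 6083.5 bases.

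Their splice sites were often used by other rings. The upstream end of 653 many-exon circRNAs (68.5%) was also the upstream end of another exonic circRNA, against 45.7% of those of 2 to 9 exons. For the downstream end this held for 522 (54.8%), against 42.3%. Both ends were shared in 387 (40.6%), against 21.3%. Sharing was not counted apart for the 2013 circRNAs of 7 to 9 exons, the class nearest in exon number. For matching, starts of entries whose host was a gene number were moved back by 1 base. Rings of the same host and end are not independent of each other, and these shares are a description with no test.

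The rings with the most exons came mostly from genes of very large proteins and had few reads. TTN, which encodes the giant sarcomere spring titin, gave the ring with the most exons and the greatest length, with 65 exons (58 to 122), 14361 bases, at chr2:118126314-118168018 on the minus strand, and its 2 reads were both in kid 3. UBR4, a ubiquitin ligase that reads protein N-termini, gave a ring of 55 exons and 8469 bases with 1 read in fetus 1. SYNE1 (nesprin 1, which ties the nucleus to the cytoskeleton) gave a ring of 39 exons with 1 read in fetus 2. KIAA1109, a lipid transfer protein, gave a ring of 38 exons with 1 read in fetus 1, and USP34, a deubiquitinase, gave a ring of 37 exons with 1 read in fetus 3. A ring of VPS8 with 37 exons and 5 reads is described further on. Length did not follow exon number alone. LNPEP, the insulin-regulated aminopeptidase, gave a ring of 17 exons and 11266 bases, with 2 reads in kid 3. ALMS1, a protein of centrosomes and basal bodies, gave a ring of 10 exons and 9171 bases with 2 reads in kid 2. WHSC1L1, a histone methyltransferase, gave a ring of 15 exons and 8478 bases with 2 reads in fetus 3. Counts of 1 or 2 reads show that a junction was seen and allow no statement on stage.

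The share of back-splice reads that fell on many-exon circRNAs overlapped between the stages. It was 1.11%, 1.16% and 1.22% in the 3 kid libraries and 1.10%, 1.11% and 1.15% in the 3 fetus libraries. The means were 1.163% ± 0.0586 in kid and 1.119% ± 0.0279 in fetus (SD, n = 3 each), a difference of 0.0436 percentage points with overlapping libraries. The exact (Clopper-Pearson) 95% interval for a library was as wide as 1.06% to 1.26% in kid 2 and 0.998% to 1.23% in fetus 2, and covers counting error only. As a share of exonic reads the values were 1.361% ± 0.0738 in kid and 1.241% ± 0.0333 in fetus. At an equal depth of 33222 reads, 172.2 ± 9.11 many-exon circRNAs were expected in a kid library and 183.9 ± 6.42 in a fetus library, with overlapping ranges of 166.0 to 182.6 in kid and 176.7 to 189.0 in fetus. Over all reads, 156 many-exon circRNAs were seen in both stages, 446 in kid only and 351 in fetus only, from 193728 back-splice reads in kid and 126173 in fetus. Of the 19869 exonic circRNAs of fewer than 10 exons, 7113 were seen in both stages, 6796 in kid only and 5960 in fetus only. A circRNA with 1 read can be seen in 1 stage only, and 520 of the many-exon circRNAs had 1 read.

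2 rings, of LMO7 and AASS, held the most reads. LMO7 had 299 of the 2253 kid reads and 75 of the 1419 fetus reads, and AASS had 151 of the kid reads and 26 of the fetus reads. Both rings are part of the share of reads given above, so its overlap between the stages does not describe the other many-exon circRNAs alone. The share without these 2 rings was not calculated. The 10 most-read many-exon circRNAs held 1162 reads, 31.6% of the class.

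The ring of LMO7 was the most abundant many-exon circRNA in both stages and rose in kid. LMO7 is a LIM domain protein that binds emerin and sits at cell junctions. The ring runs from exon 2 to exon 11 with 2513 bases, at chr12:35520126-35552054 on the minus strand. It had 116, 79 and 104 reads in kid and 21, 17 and 37 reads in fetus. Every kid library lay above every fetus library. The level was 1722 ± 275 CPM in kid and 536 ± 71.3 CPM in fetus (SD, n = 3 each), a log2 fold change of 1.66 ± 0.24 (SE) with adjusted p = 9.74e-04 (edgeR quasi-likelihood test). The ring carried 58.0% of all exonic circRNA reads of LMO7, the most of its 20 circRNAs.

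The ring of AASS was the other many-exon circRNA that rose. AASS is the mitochondrial enzyme of the opening steps of lysine breakdown. The ring also runs from exon 2 to exon 11, with 1293 bases, at chr4:33600215-33618663 on the plus strand. It had 59, 35 and 57 reads in kid and 9, 7 and 10 reads in fetus, again with no overlap. The level was 851 ± 42.2 CPM in kid and 195 ± 32.6 CPM in fetus (SD, n = 3 each), a log2 fold change of 2.13 ± 0.32 (SE) with adjusted p = 0.00115 (edgeR). It carried 72.8% of the exonic circRNA reads of AASS. Both calls held when any 1 library was left out, with adjusted p of at most 0.0155 for LMO7 and 0.0117 for AASS. With fetus 3 as the only fetus library, an alternative chosen after the read losses of fetus 1 and fetus 2 were seen, neither passed (adjusted p = 0.0956 for LMO7 and 0.0616 for AASS) while the log2 fold changes were 1.40 and 2.26. Muscle fibre markers were also higher in kid, as given above, and their part in these results was not tested.

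Across all circRNAs, 1962 had at least 5 reads in at least 3 libraries and were tested, and 300 (15.3%) were called at adjusted p below 0.05, 185 higher (9.43%) and 115 lower (5.86%) in kid. Scaling by total back-splice reads with no TMM factors gave 150 higher and 182 lower, and it moved the median over all tested circRNAs to -0.16 on the log2 scale, against 0.07 with TMM. Of the 953 many-exon circRNAs, 17 passed the read filter. LMO7 and AASS were called higher and 0 were called lower, which is 11.8% of the 17 against 15.3% of all tested circRNAs. DESeq2 called LMO7 and AASS too, and 0 lower. In 5 of the 17 every kid library lay on the same side of every fetus library, against 37.4% of all tested circRNAs. The median log2 fold change was -0.02 over the 17 and 0.07 over all tested circRNAs. The filter requires reads in several libraries, so the 17 stand for the most-read many-exon circRNAs only.

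**Figure D2:**
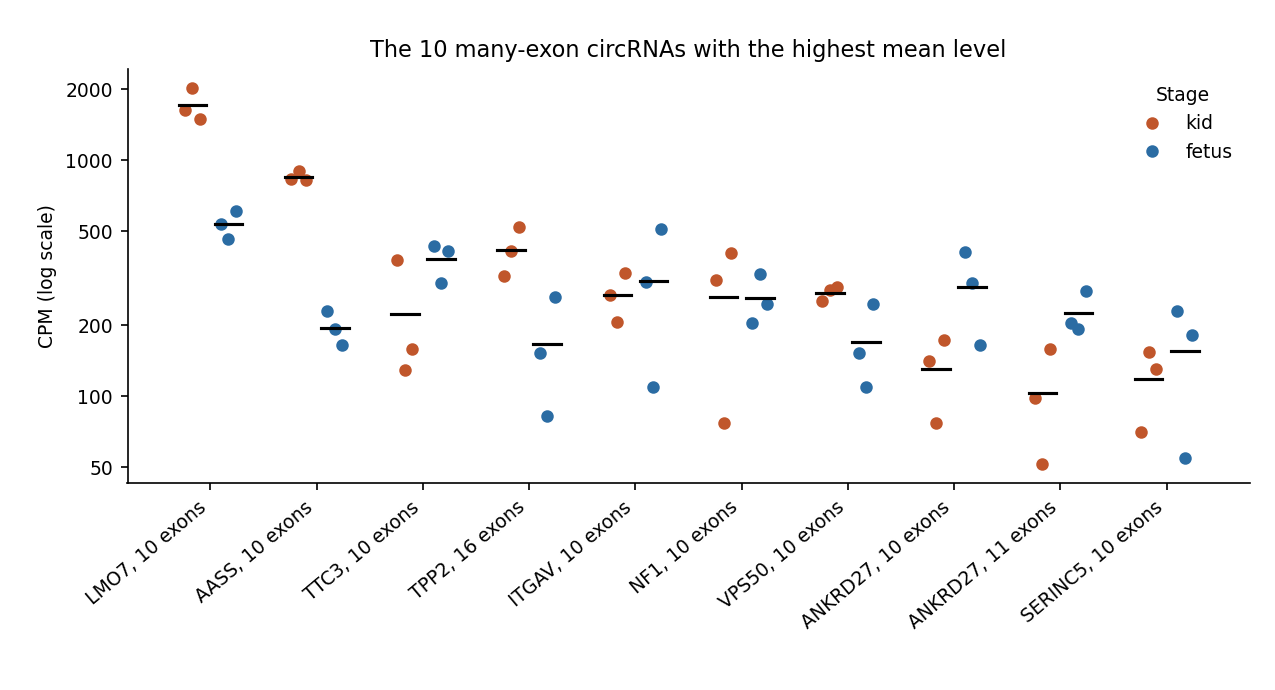
Level of the 10 many-exon circRNAs with the highest mean CPM (log axis). Each point is 1 library, with kid left of fetus for every circRNA, and the black line is the mean of 3 libraries. LMO7 and AASS lie apart by stage, with means of 1722 CPM in kid and 536 CPM in fetus for LMO7 and 851 CPM in kid and 195 CPM in fetus for AASS, while most of the others overlap.

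The other abundant rings did not pass the test. TPP2, a cytosolic peptidase that trims peptides released by the proteasome, had a ring of 16 exons and 2916 bases at chr12:7369088-7396799 on the minus strand. It had 23, 16 and 36 reads in kid and 6, 3 and 16 reads in fetus. The level was 418 ± 98.8 CPM in kid and 166 ± 91.1 CPM in fetus, and the stages did not overlap in CPM (log2 fold change 1.25 ± 0.45, SE, adjusted p = 0.0831, edgeR). This ring held 93.5% of the exonic circRNA reads of TPP2. VPS50, a subunit of a tethering complex for endosome recycling, had a ring of 10 exons with 18, 11 and 20 reads in kid and 6, 4 and 15 reads in fetus. Its log2 fold change was 0.63 ± 0.43 (SE, adjusted p = 0.359, edgeR). The stages did not overlap in CPM, but the nearest values were 253 in kid 1 and 247 in fetus 3. Without the TMM factors the stages overlap.

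ANKRD27, an effector of small Rab GTPases in endosome traffic, had a pair of abundant rings that begin at the same exon and end 1 exon apart, both with lower means in kid. The ring of exons 3 to 12 (chr18:44293415-44304349, minus strand) had 10, 3 and 12 reads in kid and 16, 11 and 10 reads in fetus. The ring of exons 3 to 13 (chr18:44291991-44304349) had 7, 2 and 11 reads in kid and 8, 7 and 17 reads in fetus. The log2 fold changes were -1.05 ± 0.50 and -1.06 ± 0.51 (SE), with adjusted p = 0.181 and 0.192, and the CPM of the stages overlapped for the shorter ring and did not for the longer one. A further 2 listed rings of ANKRD27, with 8 reads and 2 reads, have the same exon numbers and lengths as these and differ by 1 base in the start and 3 in the end. They were not added, and whether they are separate junctions was not measured.

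The other 4 rings among the 10 most abundant also did not pass. TTC3, a ubiquitin ligase, had a ring of exons 2 to 11 with 27, 5 and 11 reads in kid and 17, 11 and 25 reads in fetus (log2 fold change -0.73 ± 0.45, adjusted p = 0.309). ITGAV, the alpha V chain of integrin receptors for matrix, had a ring of exons 14 to 23 with 19, 8 and 23 reads in kid and 12, 4 and 31 reads in fetus (-0.24 ± 0.49, adjusted p = 0.804). NF1, a GTPase activator that lowers Ras activity, had a ring of exons 12 to 21 with 22, 3 and 28 reads in kid and 8, 12 and 15 reads in fetus (0.10 ± 0.51, adjusted p = 0.926). SERINC5, a multi-pass membrane protein, had a ring of 10 exons and 5516 bases with 5, 6 and 9 reads in kid and 9, 2 and 11 reads in fetus (-0.46 ± 0.60, adjusted p = 0.673). Kid 2 was the lowest of the 6 libraries in CPM for NF1, and fetus 3 was the highest for ITGAV.

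ACACB, the acetyl-CoA carboxylase whose product keeps fatty acids out of mitochondria, had a ring of exons 25 to 34 that was not tested because it reached 5 reads in 2 libraries only. It had 5, 4 and 26 reads in kid and 0, 0 and 1 read in fetus. The pooled CPM ratio of kid over fetus was 26.7, with an exact 95% interval of 4.48 to 1080 that covers counting error only, and 26 of the 35 kid reads came from kid 3. With no read filter it was also called higher in kid.

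Most host genes made 1 many-exon ring. There were 427 such genes, with 103 genes making 2 rings and 76 making 3 or more. Beside their shorter circRNAs the many-exon rings were usually minor, with a median of 5.88% of a host's exonic circRNA reads, and 25 hosts had no shorter ring. Yet 93 many-exon circRNAs were the most read circRNA of their host, ties included, and in 50 hosts the class held over 50% of the reads. 7 of these hosts had 20 or more many-exon reads. By the share in many-exon rings they were TPP2 (93.5%), AASS (72.8%), NF1 (68.4%), LMO7 (59.2%), FAM208A (56.2%), a subunit of a silencing complex, INPP5F (55.3%), a phosphoinositide phosphatase, and TTC3 (53.3%). These 7 were picked out after their values were seen.

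VPS8, a subunit of the CORVET tether of early endosomes, had 6 rings that began at the same upstream end, with 13 to 37 exons and 38 reads in all. The most read enclosed exons 9 to 21 (chr1:82027832-82057498, minus strand), with 6, 5 and 4 reads in kid and 0, 0 and 6 reads in fetus. The ring of exons 9 to 28 had 0, 0 and 2 reads in kid and 1, 0 and 3 reads in fetus. The ring of exons 9 to 45, with 37 exons and 3461 bases, had 0, 1 and 4 reads in kid and none in the 3 fetus libraries. A common start with a varied end was also seen in DPY19L4 (5 rings, 36 reads), ADAMTS9 (5 rings, 13 reads), PICALM (4 rings, 40 reads) and FAM208A (4 rings, 27 reads). VRK1, a nuclear kinase, had the reverse, with 4 rings of 38 reads that shared the downstream end.

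LMO7 differed from VPS8 in that 1 ring dominated. Beside its ring of exons 2 to 11, its other 6 many-exon rings had 1 or 2 reads each. The 5 of them with listed exon numbers began at exon 4 of the transcript listed for each. Of the 6, 3 shared an upstream end. TTN had the most rings, 20, with 78 reads spread thinly among them. The most read TTN ring, of exons 167 to 187 (chr2:118096550-118100874, minus strand), had 6, 0 and 2 reads in kid and 5, 3 and 5 reads in fetus. In all, 3 of the TTN rings had 21 exons and 1755 bases with displaced ends. TTN holds runs of short exons of similar sequence, so reads may be divided among such rings and their separate counts are uncertain. Summed over the 20 rings, TTN had 21, 12 and 16 reads in kid and 5, 5 and 19 reads in fetus.

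**Figure D3:**
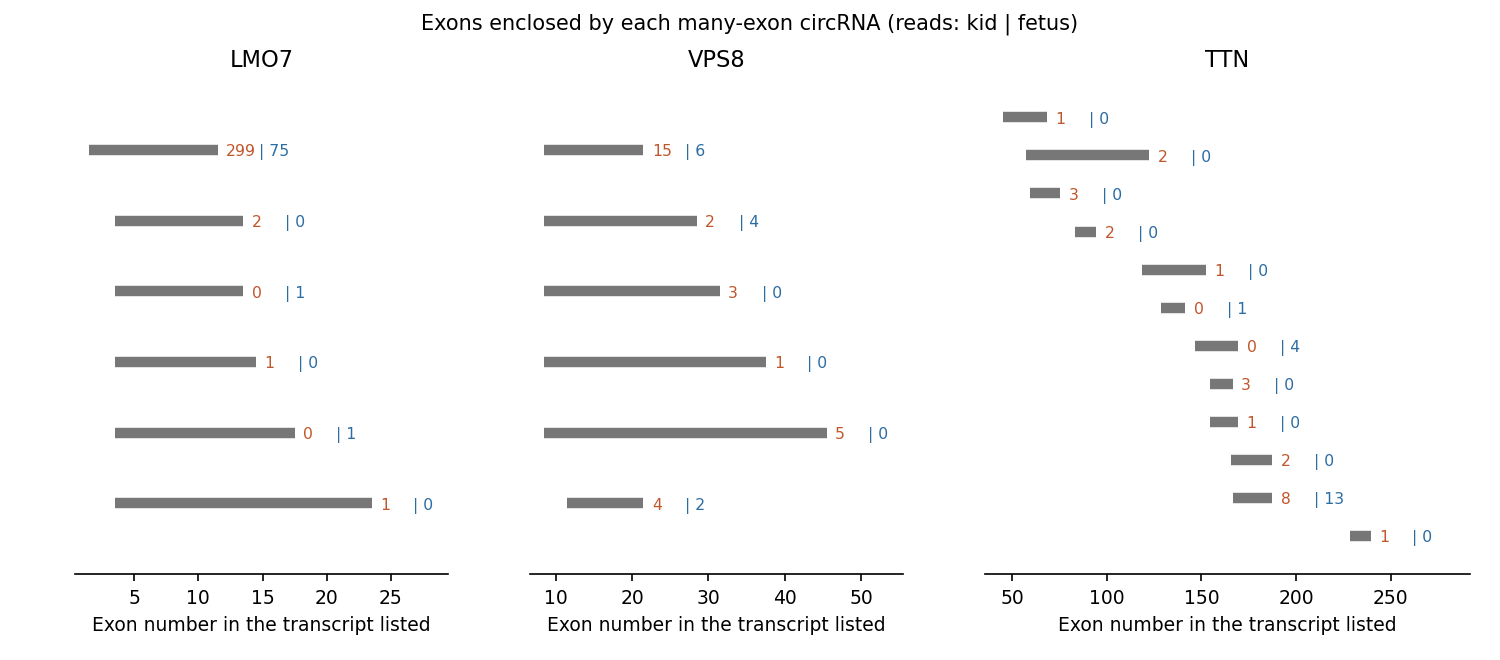
Exons enclosed by each many-exon circRNA of LMO7, VPS8 and TTN. Each bar runs from the first to the last enclosed exon in the transcript listed for it, and the numbers beside it are back-splice reads in kid and in fetus. LMO7 has 1 dominant ring (299 reads in kid, 75 in fetus), 6 of the 7 rings of VPS8 share a start, and those of TTN are spread over the gene; rings with no listed exon numbers are not drawn.

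Since single rings had few reads, the reads of all many-exon circRNAs of a host were also summed and tested beside the sum of its shorter ones. Of 1654 such sums in the whole table, 326 (19.7%) were called, 189 higher (11.4%) and 137 lower (8.28%) in kid, and with no TMM factors 124 were higher and 212 lower. The many-exon sums of 23 hosts passed the read filter. Of these, ADGRA3, PHKB and PIAS2, a SUMO ligase, reached 5 reads in kid libraries only and so entered the test through the stage in which they were higher, while 0 entered through fetus libraries only. LMO7, AASS and ADGRA3 were higher in kid and 0 were lower (edgeR). DESeq2 called LMO7 and AASS. In 7 of the 23 the libraries of the stages were apart, against 36.6% of all sums. The median log2 fold change was 0.38 over the 23 and -0.02 over all sums. The 3 sums that entered through kid had to lie toward kid, so these counts and the median are a description only.

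ADGRA3, an adhesion G protein-coupled receptor, was called as a sum, which passed the read filter through the kid libraries alone, so that a call could only be higher in kid. Its 5 many-exon rings had 13, 8 and 10 reads in kid and 0, 0 and 3 reads in fetus, and the log2 fold change was 2.93 ± 0.88 (SE, adjusted p = 0.0224, edgeR). The pair of fetus libraries with no reads were those with fewer reads kept. The call was lost with DESeq2 (log2 fold change 3.15, adjusted p = 0.0699), without fetus 1 (2.45, adjusted p = 0.0805), without fetus 2 (2.51, adjusted p = 0.0752) and with fetus 3 as the only fetus library (1.76, adjusted p = 0.278). It remained without fetus 3 (0.0115), when every fetus library left was at 0 and the fitted value, 6.19, depends on the prior count, and could not be tested without any 1 of the kid libraries, since too few reads were left. ANKRD27 had 17, 5 and 26 many-exon reads in kid and 29, 18 and 29 in fetus, with a log2 fold change of -1.11 ± 0.39 (SE, adjusted p = 0.0506). It passed without kid 3 (adjusted p = 0.0244) and with no TMM factors (0.0213). TPP2 had a log2 fold change of 1.26 ± 0.45 (adjusted p = 0.0511), and passed without fetus 3 (0.0327) and without kid 1 (0.0448). PHKB, a regulatory subunit of the kinase that activates glycogen breakdown, had 8, 6 and 6 reads in kid and 2, 1 and 0 in fetus, with 2.24 ± 1.02 and adjusted p = 0.129.

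In 21 hosts the many-exon and the shorter sums could be compared within the gene, which asks whether rings of 10 or more exons changed by another factor than the host's other rings. No host was called (edgeR diffSpliceDGE), 3 had an unadjusted p below 0.05, and DESeq2's interaction test gave the same 2 counts. For LMO7 the shorter rings had 79, 46 and 95 reads in kid and 12, 14 and 17 in fetus, a log2 fold change of 1.95 ± 0.29, so both length classes were higher in kid and the difference of long minus short was -0.29 (adjusted p = 0.596). For AASS the shorter rings had 28, 11 and 21 reads in kid and 1, 0 and 5 in fetus, a log2 fold change of 2.91 ± 0.66, and the difference was -0.77 (adjusted p = 0.492).

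The 3 hosts with the smallest p differed in direction. In ADGRA3 the many-exon rings stood at 2.93 and the shorter ones at 0.80, a difference of 2.13 (edgeR, adjusted p = 0.220). Its many-exon sum entered the test through kid and has 0 reads in 2 fetus libraries. In COG6, a subunit of a Golgi tether, the many-exon rings had 8, 3 and 12 reads in kid and 9, 8 and 6 in fetus. Its shorter rings had 15, 7 and 14 reads in kid and 4, 3 and 3 in fetus, and the difference of long minus short was -1.87 (edgeR, adjusted p = 0.220). In NF1 the many-exon rings had 24, 4 and 28 reads in kid and 8, 14 and 15 in fetus, while the shorter ones had 6, 3 and 4 in kid and 8, 5 and 17 in fetus, a difference of 1.61 (edgeR, adjusted p = 0.229). The many-exon share of reads was 81.2% in kid and 55.2% in fetus for NF1, and 39.0% in kid and 69.7% in fetus for COG6. None of these passed the adjusted threshold.

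**Figure D4:**
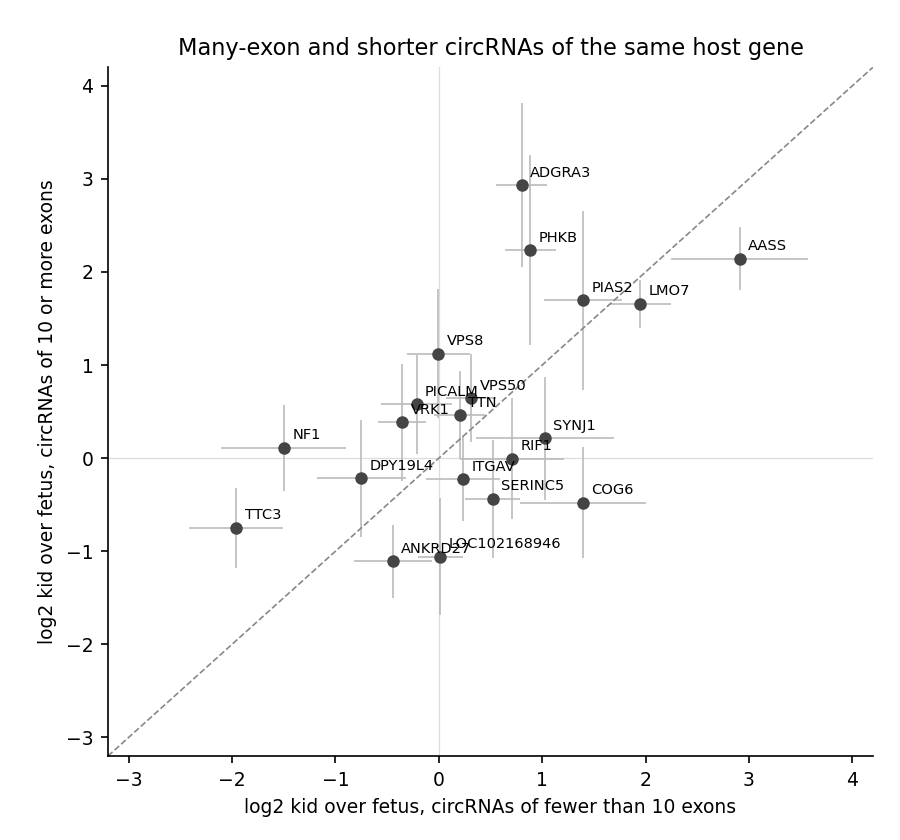
Log2 fold change of kid over fetus for the summed many-exon circRNAs (vertical) and the summed shorter circRNAs (horizontal) of the same host, for 20 of the 21 hosts with enough reads in both (1 is not reported here). Points are hosts, bars are 1 SE, and the dashed line marks equal change. LMO7 and AASS lie in the upper right, while ADGRA3 lies above and COG6 below the line; no host drawn passed the adjusted test of the difference.

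Hosts were also counted by function. The lists used for this were written with earlier results of these data known and favour large genes, so the counts describe them and are not tested. Among 86 genes of vesicle traffic and small GTPase control, 81 had an exonic circRNA and 32 of these (39.5%) had a many-exon one. The most read were NF1, VPS50 and COG6, and of 4 sums tested (with VPS8), 0 were called. Among 67 genes of ubiquitin and proteolysis, 60 had an exonic circRNA and 25 (41.7%) a many-exon one, with few reads each. MYCBP2, a ubiquitin ligase, led with 7 reads in kid and 1 in fetus, USP40, a deubiquitinase, had 6 in kid and 2 in fetus, and ITCH, a ubiquitin ligase, had 3 in kid and 4 in fetus. None was tested.

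Muscle genes were counted in the same way. Of 53 genes of the dystrophin complex and costamere, which tie the contractile apparatus to the membrane and matrix, 37 had an exonic circRNA and 14 (37.8%) a many-exon one. Of its 2 sums tested, LMO7 was higher in kid and ITGAV was not called, and DMD, the gene of dystrophin, had 3 rings with 8 reads in kid and 2 in fetus. Of 73 sarcomere genes, 42 had an exonic circRNA and 5 (11.9%) a many-exon one, among them TTN and NEB, the thin filament protein nebulin, which had 6 reads in kid and 1 in fetus. The 2 sums tested were not called. Of 43 genes of calcium handling, 8 of the 32 with an exonic circRNA had a many-exon one. CACNA2D1, a calcium channel subunit, had 11 reads in kid and 5 in fetus, ASPH had 4 in kid and 0 in fetus, and CACNA1S, the pore of the muscle calcium channel, had 2 in each stage.

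Of 71 metabolic genes, 53 had an exonic circRNA and 11 (20.8%) a many-exon one, with 77 reads in kid and 19 in fetus. ACACB held 37 of the kid reads and 1 of the fetus reads, and PHKB held 20 in kid and 3 in fetus. The 1 sum tested, PHKB, was not called. The remaining lists had no tested sum. Extracellular matrix genes had a many-exon ring in 6 of 47 hosts (12.8%), with 12 reads in kid and 14 in fetus, led by LTBP1, a latency protein of TGF-beta, with 5 in each stage, HSPG2, the proteoglycan perlecan, with 3 in kid and 7 in fetus, and TNXB, tenascin X, with 2 in kid and 0 in fetus. Motor genes had one in 9 of 43 hosts (20.9%), led by KIF1B, a kinesin, with 3 reads in kid and 2 in fetus, MYO9A, a myosin, with 3 in kid and 1 in fetus, and DNAH11, an axonemal dynein, with 2 in kid and 0 in fetus. Chromatin regulators had one in 18 of 78 hosts (23.1%), with 27 reads in kid and 30 in fetus, and EHMT1, a histone H3 methyltransferase, had 4 reads in kid and 12 in fetus, with BRWD3 (2 in kid, 3 in fetus) and CHD2, a chromatin remodeller (4 in kid, 1 in fetus), next. Cell cycle and DNA repair genes had one in 16 of 67 hosts (23.9%), with 26 reads in each stage. There ATR, the kinase of replication stress, had 3 in kid and 5 in fetus, RB1, the retinoblastoma protein, had 4 in each stage, and CEP112, a centrosomal protein, had 7 reads in kid and 0 in fetus.

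In the authors' deposited table, 10 of the 980 many-exon entries (1.02%) were marked significant, against 3.26% of all 25500 entries. The authors' deposited table runs as fetus over kid. Of the 10 marked many-exon entries, 7 were below 0, that is higher in kid, and 3 above 0. Among all 25500 entries, 831 were marked significant, and 486 of these (1.91% of all entries) were higher in kid. The mark in the authors' deposited table follows the unadjusted p-value, since entries so marked have q-values up to 0.600. In the authors' deposited table, 3 many-exon entries had a q-value below 0.05, those of AASS (log2 fold change -2.10), LMO7 (-1.62) and ACACB (-5.01). Of the other 7, the authors' deposited table lists 3 under ANKRD27, where entries 1 base apart were tested separately and 2 have an infinite fold change.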

How the data were processed

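Total RNA was depleted of ribosomal RNA, treated with RNase R, which digests linear RNA, and sequenced as paired reads, per the labels' protocols. Tools named in the submitters' processing notes are cutadapt, FastQC and TopHat; for the caller of circRNAs, the build and the annotation, the sources used here give nothing. Coordinates are those of the deposited tables, whose build is not named. The authors deposited back-splice read counts for each circRNA in each library, a normalized signal (SRPBM), a comparison with a log2 fold change, p-value and q-value, and a quality table with counts of reads and percent values, per the file headers.

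Entries with the same sequence, strand and end and starts 1 base apart were added together (1463 exonic pairs). In these pairs the later start was always the entry whose host was a gene number; such hosts were named through the RefSeq gene table. circRNAs that reached 5 reads in 3 or more libraries were tested for kid minus fetus with edgeR 4.0.16 (glmQLFit with robust settings, glmQLFTest, TMM, R 4.3.3), with Benjamini-Hochberg adjustment over the whole table and a threshold of 0.05. SE is the log2 fold change divided by the root of F. Reads summed by host and exon class (10 or more, fewer than 10) were tested in the same way. Their CPM used each library's total of all back-splice reads with TMM factors from the table of sums. The 2 classes within a host were compared with diffSpliceDGE. On simulated counts with log2 changes of 2 in either direction, these tests recovered 39.2% of changed circRNAs (1920 tested), 86.2% of changed sums (1654 tested) and 70.0% of 10 changed hosts (20 tested). The simulated circRNAs were given more spread between libraries than edgeR estimated for the real ones. The 39.2% is therefore not the recovery rate in these data and cannot be set against the 86.2%. edgeR's common biological coefficient of variation came to 0.318 in the circRNA table and 0.263 in the table of sums. DESeq2 1.42.0 was an alternative. Equal-depth numbers are exact expectations under thinning to 33222 reads. PCR copies are not independent molecules, so intervals cover counting error only.

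Named are the 10 rings with the highest mean CPM, those past the threshold, the 5 with the most exons and the 5 longest, the 10 hosts with the most many-exon reads, called hosts, and 3 hosts per gene list. The members, gene lists and tests were chosen with earlier results of these data known. Some genes that these rules name are not reported here. No genome was used, and no sequence is printed.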

Additional observations from a re-analysis of the deposited data

How the results depend on the processing

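The calls of LMO7 and AASS as rings kept their direction and side of the threshold with DESeq2, no read filter, entries as listed, the counts of the expression table, library sizes from valid reads, no TMM factors, the replicate block and each library left out; with fetus 3 as the only fetus library 0 members were called. A limit of 8 exons gave 4 higher and 1 lower of 54 tested (9.26%, against 15.3% of all circRNAs); at 12 exons only 5 were tested, and 0 were called. With fetus 3 alone, 20 circRNAs were higher and 2 lower, and 54 sums higher and 22 lower; the lone library is assumed to vary like the others. With no TMM factors 182 circRNAs were lower, 124 sums higher, 212 sums lower and 1 many-exon sum (ANKRD27) lower. Valid reads as library size gave 109 sums higher and 76 lower, and DESeq2 85 lower. Leaving out 1 library gave 82 to 155 circRNAs higher, 43 to 95 lower, 119 to 148 sums higher, 62 to 104 lower, 0 to 1 many-exon sums lower and 0 to 1 hosts called for long against short (ADGRA3 without fetus 3, where its many-exon fetus reads were all 0, so the call rests on a count of 0). Deviations of same-numbered libraries had correlations of 0.0005, 0.0344 and -0.0335, and those of libraries with unlike numbers had -0.0358 to 0.0439. The values are of the same size, so this check cannot tell whether the numbers pair the libraries. With the replicate block, edgeR called 4 many-exon sums higher, with TPP2 (adjusted p = 0.0341), and 1 lower, ANKRD27 (0.0368). It called 2 members higher and 0 lower as before.

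The difference in share was -0.0978 percentage points at 8 exons or more and 0.121 over exonic reads; that in equal-depth number, -11.8, was -38.4 at 8 exons or more and 4.13 at 12 or more. Uncalled values changed sign for the NF1 ring (DESeq2 -0.0023, no TMM -0.12, replicate block -0.0013, without fetus 1 -0.11, without 1 library -0.26 to 0.48) and sum (no TMM -0.12, without fetus 1 -0.09, without 1 library -0.17 to 0.45), with 1 library left out for the ITGAV ring (-0.68 to 0.33, positive without fetus 3) and sum (-0.60 to 0.40), and with fetus 3 alone for the TTN sum (-0.20). The cause was not tested. Depth limits all of this: 936 members had too few reads to be tested.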
